A study of Mus musculus with 9 samples.

Results

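The small leucine-rich proteoglycans (SLRPs) described here were the 10 genes Dcn, Bgn, Lum, Fmod, Ogn, Aspn, Prelp, Omd, Podn and Epyc, taken by gene symbol from the 49548 genes of the deposited tables. All 10 symbols were found once in each table and joined by gene identifier. The libraries came from synovial fibroblasts (SFs) grown from mouse ankle joints (CBA C57BL/6J, 8 weeks of age), cultured and depleted of CD45+ cells at passage 1, which were sequenced from the 3′ ends of their mRNAs. There were 3 libraries from wild-type (WT) SFs, 3 from SFs of hTNFtg mice, which carry a human TNF transgene and develop arthritis, and 3 from hTNFtg SFs given infliximab, an antibody against TNF, at 1 μg/mL for 48 hours. Per the labels the WT SFs and the other hTNFtg SFs had no treatment, whereas a vehicle is described in the study's methods. The replicates are named as biological replicates, without saying whether each was 1 mouse or a pool. The transcript of the human transgene was not analysed here.

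SLRPs are secreted proteins with a horseshoe-shaped core of leucine-rich repeats that bind to collagen fibrils and set how thick and how regularly spaced these become. Many of them carry chondroitin, dermatan or keratan sulfate chains, and several also bind growth factors, complement or Toll-like receptors. In joints they are found in cartilage, tendon, ligament and synovium, where matrix proteases can cut them.

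Of the 10 genes, 8 sit in clusters in the mouse genome, while Bgn lies on chromosome X and Podn on chromosome 4. The start regions of the genes on which the results turn are shown before their values. Aspn, Omd and Ogn lie side by side on chromosome 13 with gaps of 15.2 and 15.5 kb, Dcn, Lum and Epyc lie on chromosome 10 with gaps of 47.3 and 71.4 kb, and Prelp and Fmod lie 116 kb apart on chromosome 1. Promoter sequences were from RefSeq on GRCm38.p6, as 250 bases before to 50 bases after the start, and 8 of the 10 genes had an entry, Dcn and Lum being the others. Printed are those of Aspn, Ogn and Fmod, which were lowered in hTNFtg SFs, and that of Bgn, the most abundant gene of the family, all on the plus strand, at chr13:49544193-49544492, chr13:49607765-49608064, chr1:134037004-134037303 and chrX:73483351-73483650. Capitals mark matches, on either strand, to the letters TATAAA (as in a TATA box), to CCAAT (as in a CCAAT box) and to GGGCGG (as in an Sp1 site).
Aspn: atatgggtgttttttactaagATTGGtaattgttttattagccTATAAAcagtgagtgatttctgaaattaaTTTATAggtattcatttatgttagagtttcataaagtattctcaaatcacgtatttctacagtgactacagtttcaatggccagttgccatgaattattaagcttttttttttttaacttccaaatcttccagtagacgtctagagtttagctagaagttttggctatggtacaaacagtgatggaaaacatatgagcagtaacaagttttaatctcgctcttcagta
Ogn: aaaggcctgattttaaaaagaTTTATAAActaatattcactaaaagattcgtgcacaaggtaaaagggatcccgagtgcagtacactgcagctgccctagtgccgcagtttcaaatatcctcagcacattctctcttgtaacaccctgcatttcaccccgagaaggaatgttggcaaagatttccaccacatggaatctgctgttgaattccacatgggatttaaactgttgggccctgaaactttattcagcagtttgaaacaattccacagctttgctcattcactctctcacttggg
Fmod: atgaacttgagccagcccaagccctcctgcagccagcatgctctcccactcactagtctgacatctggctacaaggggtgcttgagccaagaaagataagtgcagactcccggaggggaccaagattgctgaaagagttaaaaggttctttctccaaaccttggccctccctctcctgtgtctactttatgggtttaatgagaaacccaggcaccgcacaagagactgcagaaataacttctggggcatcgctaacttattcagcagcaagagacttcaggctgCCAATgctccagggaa
Bgn: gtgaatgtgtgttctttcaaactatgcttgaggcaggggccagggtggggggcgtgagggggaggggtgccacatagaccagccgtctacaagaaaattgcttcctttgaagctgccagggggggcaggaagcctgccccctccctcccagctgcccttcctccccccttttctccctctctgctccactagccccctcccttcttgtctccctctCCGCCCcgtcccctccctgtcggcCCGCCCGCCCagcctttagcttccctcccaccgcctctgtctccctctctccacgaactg

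The promoters of Aspn and Ogn were poor in G and C, at 31.0% and 42.3%, against a median of 52.7% over 32851 promoters, while those of Fmod and Bgn stood at 51.0% and 63.7%. TATAAA, found on either strand in 13.6% of all promoters, occurred 2 times in that of Aspn and 2 times in that of Ogn, where both matches overlap as the same stretch read on each strand. GGGCGG, in 35.7% of promoters, occurred 3 times in that of Bgn, with an overlap between matches, and CCAAT, in 37.4%, occurred 1 time in those of Aspn and Fmod. The letters TGANTCA and GGGNNNTTCC, in 7.81% and 5.56% of promoters, were in none of the 10 entries for the 8 genes, and CAGACA, in 21.0%, was in those of Podn and Prelp. These are matches of letters and not sites of binding.

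The values are normalized counts, reads per gene scaled by 1 factor per library. The approximate number of reads was 3828939 to 9015557 in 8 libraries and 613311 in hTNFtg replicate 1, where 3 reads stand at 18.7 normalized counts, against 1.60 to 3.31 in the others. Markers of fibroblasts summed to 35757 to 51790 in all 9 libraries, and those of endothelial cells to 2 to 12. Markers of hepatocytes reached 954 in 1 infliximab library, against 19 to 67 in the other 8.

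Bgn and Fmod were the most abundant SLRP genes. Since 3′ sequencing reads a transcript at its end, levels were compared between genes without dividing by length. In WT SFs, Bgn, which encodes the chondroitin or dermatan sulfate proteoglycan biglycan, stood at 16576 ± 4146 normalized counts (SD, n = 3) and was the 22nd highest of all genes by mean. Fmod, which encodes the keratan sulfate proteoglycan fibromodulin, stood at 5801 ± 1011 (SD, n = 3) and ranked 80. Below them came Lum at 811 ± 464, Dcn at 628 ± 80.5, Prelp at 503 ± 59.7, Ogn at 390 ± 135, Aspn at 379 ± 235 and Podn at 281 ± 123. Omd at 29.0 ± 26.5 and Epyc at 3.33 ± 2.89 were the lowest. The WT ranges of Bgn, Fmod, Omd and Epyc overlapped with no neighbour in this order, whereas each neighbouring pair from Lum to Podn overlapped.

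**Figure D1:**
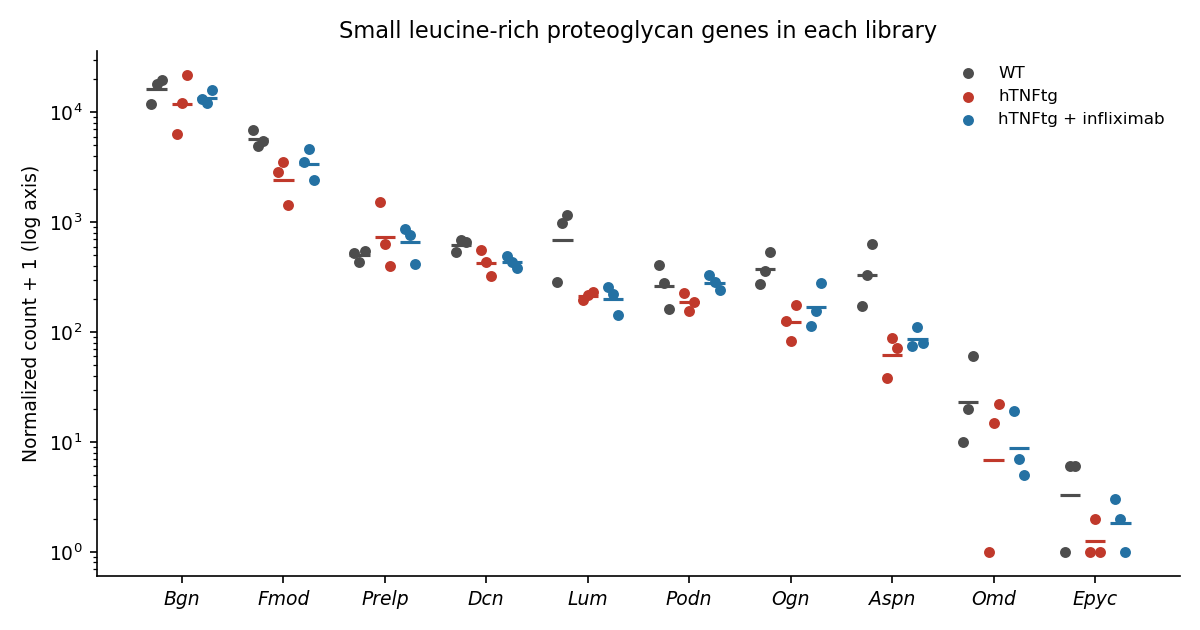
Normalized count plus 1 of each SLRP gene on a log axis, with 1 point per library, 3 libraries per group, and a line at the mean of the log values. Aspn, Lum, Ogn and Fmod are the genes whose hTNFtg points all lie below their WT points, and hTNFtg replicate 1 gives the 0 for Omd.

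The 10 genes together made up 0.479% to 0.667% of the normalized counts of WT libraries, 0.312% to 0.518% in hTNFtg and 0.446% to 0.474% with infliximab. The hTNFtg range overlapped with that of WT, and the infliximab range lay below it. Bgn and Fmod held 77.7% to 94.4% of the family's counts over the 9 libraries. Without these genes the other 8 held 0.0504% to 0.0869% of WT libraries, 0.0292% to 0.0695% of hTNFtg libraries and 0.0369% to 0.0509% of infliximab libraries.

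**Figure D2:**
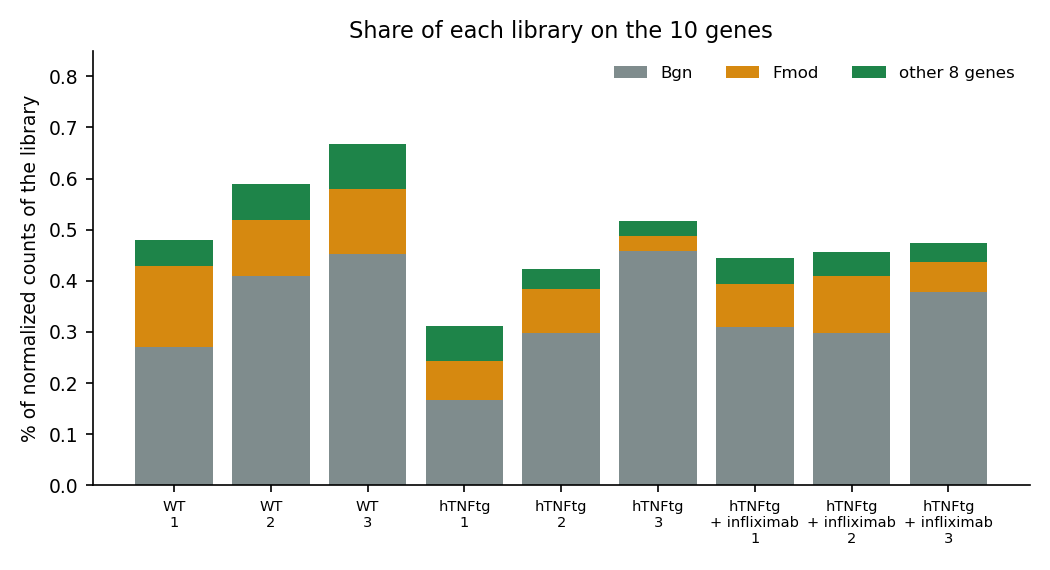
Percent of each library's normalized counts on Bgn, on Fmod and on the other 8 SLRP genes, stacked, for the 9 libraries. The WT bars reach 0.479% to 0.667%, and Bgn forms the largest piece of every bar.

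To ask how the family differs in SFs of arthritic mice, hTNFtg SFs were compared with WT SFs. Aspn, Lum, Ogn and Fmod were lower in hTNFtg SFs, by 2.35-fold to 5.31-fold on the scale of log2 of the normalized count plus 1, and no SLRP gene was called raised. By the study's cut-offs, an absolute log2 fold change of at least 1 and an unadjusted P under 0.05, 4 of the 10 genes were lowered, against 3.04% of the 28522 genes tested, and 0 were raised, against 3.35%. The 4 lowered genes were also those whose groups did not overlap, against 5.8% of all genes lower without overlap and 5.63% higher. With Benjamini-Hochberg adjustment over all genes in limma, 0 of the 10 had an adjusted p under 0.05, against 0.48% of all genes. In limma 4 had an unadjusted P under 0.05, and edgeR gave 3 with an adjusted p under 0.05, namely Aspn, Lum and Ogn. The share of all genes is given for neither, so these numbers are no result about the family. By the cut-offs, edgeR called 1484 genes raised and 926 lowered, against 956 and 867 in limma. The median log2 fold change was -1.31 over the 10 genes, or -0.89 with values under 3 reads set to their bound, and -0.0034 over all genes. Fewer cells of a type and less RNA per cell cannot be told apart in these bulk libraries.

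Aspn encodes asporin, a class I member without the usual glycosaminoglycan chain that binds collagen and TGF-β. It stood at 171, 333 and 634 normalized counts in WT replicates 1 to 3, and at 37, 88 and 71 in hTNFtg. Every hTNFtg library was below every WT library, although the WT libraries themselves differed by 3.71-fold. The log2 fold change was -2.41 (SE 0.48, limma adjusted p = 0.0605), and it stayed between -2.88 and -1.94 and past the cut-offs under the 16 alternative settings, with adjusted p from 3.14e-07 to 0.557.

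Ogn encodes osteoglycin, also called mimecan, a class III member. Its values were 275, 357 and 539 in WT and 125, 82 and 175 in hTNFtg, again without overlap. The log2 fold change was -1.62 (SE 0.37, limma adjusted p = 0.0997). It was past the cut-offs under the same 16 settings, with adjusted p from 0.00157 to 0.630.

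Lum encodes lumican, a class II keratan sulfate proteoglycan of collagen-rich tissues. It stood at 284, 990 and 1158 in WT and at 193, 217 and 230 in hTNFtg. The hTNFtg libraries were close to each other and below all WT libraries, of which replicate 1 was far lower than the others. The log2 fold change was -1.69 (SE 0.46, limma adjusted p = 0.210, and 0.000156 to 0.831 over the alternatives). When single libraries were left out, it ranged from -2.33 without WT replicate 1 to -1.31 without WT replicate 3. Without hTNFtg replicate 1 it was -1.62 with an unadjusted P of 0.0555 in limma, and was no longer called.

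Fmod stood at 6915, 4942 and 5547 in WT and at 2877, 3551 and 1431 in hTNFtg. All hTNFtg values were below all WT values, with replicate 3 the lowest. The log2 fold change was -1.23 (SE 0.45, limma adjusted p = 0.439, and 0.0973 to 0.831 over the alternatives). This was the least stable of the 4 calls. Fmod was no longer called without hTNFtg replicate 3 (-0.85), without WT replicate 1 (-1.10, limma unadjusted P = 0.0722), without WT replicate 3 (-1.26, limma unadjusted P = 0.0500204) or with array quality weights (-0.80).

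The other SLRP genes overlapped between the groups and were not called. Dcn, which encodes decorin, the class I partner of biglycan that binds collagen and TGF-β, stood at 536, 684 and 665 in WT and at 561, 432 and 320 in hTNFtg, a log2 fold change of -0.55 (SE 0.31). Bgn stood at 11848, 18289 and 19590 in WT and at 6378, 12209 and 22082 in hTNFtg, so that its hTNFtg libraries lay on both sides of the WT range. Its log2 fold change was -0.43 (SE 0.65), and it was 0.020 without hTNFtg replicate 1. Prelp, which encodes a class II protein with an arginine- and proline-rich end that binds heparan sulfate, was the single gene with a positive value, at 525, 435 and 548 in WT and 1513, 633 and 402 in hTNFtg, and 0.54 (SE 0.43) on the log2 scale. Its value was 0.012 without hTNFtg replicate 1 and 0.97 without hTNFtg replicate 3.

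Podn, which encodes podocan of class V, stood at 406, 277 and 161 in WT and at 224, 154 and 187 in hTNFtg, and its log2 fold change was -0.49 (SE 0.36). It overlaps Scp2 on the same strand, so some of its reads may be shared. Omd, which encodes osteomodulin of mineralised tissue, stood at 9, 19 and 59 in WT and at 0, 14 and 21 in hTNFtg, where the 0 of replicate 1 allows up to 18.7 normalized counts. Its log2 fold change was -1.73 (SE 1.14), and -0.33 without hTNFtg replicate 1. Epyc, which encodes the cartilage protein epiphycan, stood at 0, 5 and 5 in WT and at 0, 1 and 0 in hTNFtg, all of the latter under 3 reads. Epyc overlaps Gm10754 on the opposite strand, with equal values in 8 of 9 libraries, and without a stated use of strand these genes cannot be told apart. Epyc passed the cut-offs without WT replicate 1, at a fitted log2 fold change of -2.25 that depends on the added 1.

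**Figure D3:**
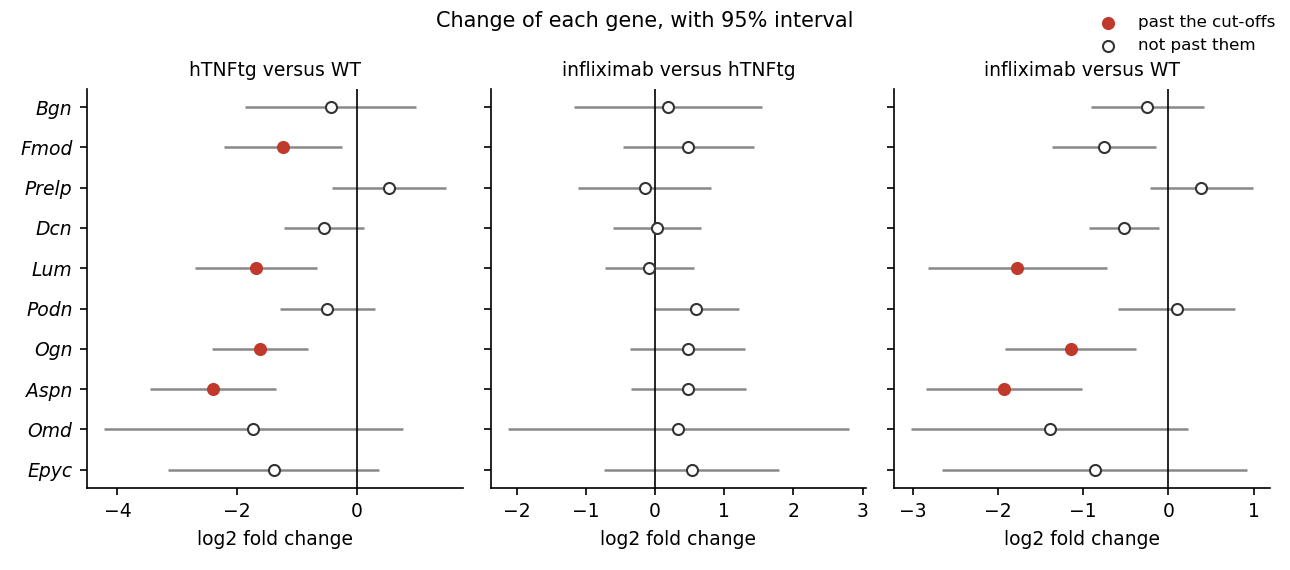
Log2 fold change of each SLRP gene with its 95% interval from limma in the 3 comparisons, with filled points for genes past the study's cut-offs. Filled points are Aspn, Lum, Ogn and Fmod in hTNFtg versus WT, none in infliximab versus hTNFtg, and Aspn, Lum and Ogn in infliximab versus WT. The points of Epyc rest on values under 3 reads in hTNFtg and infliximab libraries.

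To ask whether TNF blockade changed the family, infliximab-treated and other hTNFtg SFs were compared. No SLRP gene was called: 0 of 10 were raised, against 1.49% of 28540 genes, and 0 were lowered, against 0.936%. In limma 0 of the 10 had an adjusted p under 0.05, against 0% of all genes. Without a share of all genes to set them against, 0 had an unadjusted P under 0.05 in limma and 0 an adjusted p under 0.05 in edgeR. The infliximab libraries stood at 73, 111 and 79 for Aspn, at 112, 155 and 278 for Ogn, at 254, 222 and 143 for Lum and at 3561, 4602 and 2421 for Fmod. All 4 genes overlapped with hTNFtg. Their log2 fold changes were 0.48 for Aspn (95% interval -0.36 to 1.32), 0.47 for Ogn (-0.36 to 1.30), -0.085 for Lum (-0.73 to 0.56) and 0.48 for Fmod (-0.46 to 1.42). These intervals hold both no change and, for Aspn, Ogn and Fmod, a rise of over 1 on the log2 scale.

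Podn was the 1 gene without overlap, against 3.99% of genes higher and 3.44% lower without overlap. It stood at 330, 282 and 239 with infliximab, above the 154 to 224 of hTNFtg, with a log2 fold change of 0.59 (SE 0.28, limma adjusted p = 0.803, and 0.0711 to 0.914 over the alternatives). The remaining genes overlapped. Dcn stood at 493, 438 and 382, Bgn at 13129, 12234 and 15851, and Prelp at 872, 768 and 419. The direction of these 3 genes changed when some single libraries were left out. Omd stood at 18, 6 and 4, and Epyc at 2, 1 and 0, the latter under 3 reads in each library.

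The infliximab-treated hTNFtg SFs were also set beside WT SFs, in a comparison that shares its WT libraries with the first and its infliximab libraries with the second. Aspn, Lum and Ogn were lower than in WT, at log2 fold changes of -1.93 (SE 0.41), -1.77 (SE 0.47) and -1.15 (SE 0.35). These 3 of 10 genes were lowered, against 2.95% of 28243 genes, and 0 were raised, against 3.86%. In limma 0 of 10 had an adjusted p under 0.05, against 0.74% of all genes. There were 5 with an unadjusted P under 0.05 in limma and 4 with an adjusted p under 0.05 in edgeR. The share of all genes is given for neither, so these numbers are no result about the family. By the cut-offs, edgeR called 1242 genes raised and 809 lowered, against 1090 and 833 in limma. Dcn, Lum, Fmod and Aspn were lower without overlap, against 7.07% of genes lower and 7.14% higher without overlap, while the highest infliximab value of Ogn, 278, lay above the lowest WT value, 275. Fmod at -0.75 and Dcn at -0.52 had unadjusted P values in limma of 0.0212 and 0.0185 but a change under the cut-off. The call of Ogn was lost without infliximab replicate 1 (-0.85), infliximab replicate 2 (-1.08) or WT replicate 3 (-0.89), and that of Lum without WT replicate 2 (-1.51). Lum ranged from -2.41 to -1.40 when single libraries were left out. Without WT replicate 1 the number lowered rose to 5, with Omd at -1.99 and Epyc at -1.72. Over all genes, 724 to 1155 were lowered when single libraries were left out, against 833 in the main fit. Omd stood there at 19 and 59 in WT and 18, 6 and 4 with infliximab. Epyc stood at 5 and 5 in WT and 2, 1 and 0 with infliximab, the latter under 3 reads. Its fold depends on the added 1, and it cannot be told apart from Gm10754.

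WT replicate 1 was the lowest WT library for 7 of the 10 genes, a number given without its share over all genes. The ratio of highest to lowest WT value ran from 1.26 for Prelp to 6.56 for Omd, with none for Epyc because of its 0. It was 4.08 for Lum and 1.28 for Dcn.

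Neighbouring genes were examined because the family is clustered. On chromosome 13, Aspn, Omd and Ogn all lie within Cenpp, a centromere protein gene on the opposite strand with a mean of 21.2 normalized counts. Of the other genes within 250 kb of the clusters with a mean of at least 10, 7 on chromosome 13 and 6 on chromosome 1, 0 were raised or lowered in hTNFtg versus WT by the cut-offs, against 3.35% and 3.04% of all genes, shares at which 0 of so few genes is no result about them. Ecm2, an SLRP relative beside Aspn, stood at 9, 20 and 34 in WT, at 50, 11 and 2 in hTNFtg and at 3, 3 and 0 with infliximab, and it was lowered in infliximab versus WT (-2.95, SE 0.74). Ppfia4, near Fmod, stood at 14, 6 and 4 in WT and 38, 20 and 12 with infliximab and was raised there (1.45). On chromosome 1 in hTNFtg versus WT, Fmod was lowered and Prelp was not.

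**Figure D4:**
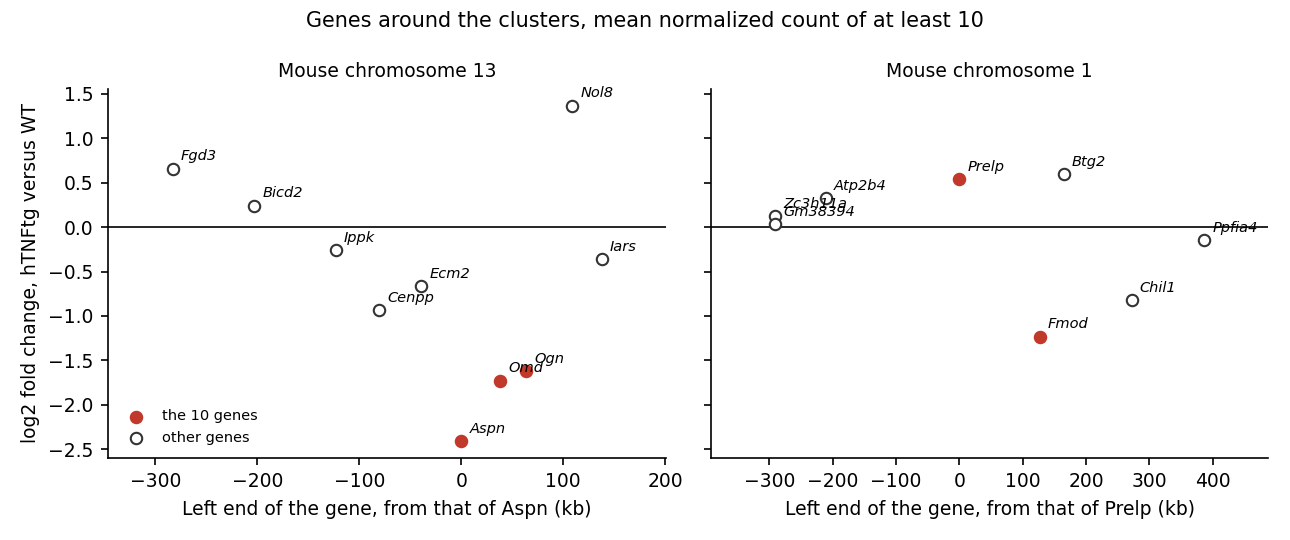
Log2 fold change in hTNFtg versus WT of the genes around the chromosome 13 and chromosome 1 clusters, against the distance of the gene's left end from that of Aspn or Prelp in kb, for genes that averaged 10 normalized counts or more. Filled points are SLRP genes. Aspn, Ogn and Omd lie at -2.41, -1.62 and -1.73, of which Omd was not called and stood at -0.33 without hTNFtg replicate 1.

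The genes most like each called SLRP gene were ranked by the distance between log2 profiles, each centred on its mean, over the 9 libraries and 8630 genes. Nearest to Aspn were Col8a2, Kctd12 and Cilp, and nearest to Ogn were Col14a1, C1rb and Iqsec1. Nearest to Lum were Gm15217, Bmp4 and Hmgn2, and nearest to Fmod were Acsl3, Nrbp2 and Pts. Among the called SLRP genes themselves, Aspn ranked 19, Ogn 219 and Fmod 973 in nearness to Lum. Lum ranked 21, Ogn 91 and Fmod 420 in nearness to Aspn. Aspn ranked 828, Lum 981 and Fmod 2965 in nearness to Ogn, and Lum, Ogn and Aspn ranked 5689, 5497 and 6411 in nearness to Fmod. Uncalled SLRP genes were nearer in these last cases, with Bgn at 644 for Ogn, and Dcn at 317 and Podn at 1856 for Fmod. For Lum and Aspn, no uncalled SLRP gene ranked ahead of the nearest called one.

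Among 9 further SLRP genes, 1 was raised and 0 were lowered in hTNFtg SFs, where 3.35% and 3.04% of all genes were. The one raised was Nepn, at 0 in all WT libraries and 12, 2 and 6 in hTNFtg, where the values of replicates 1 and 2 are under 3 reads. Tsku, a secreted inhibitor of growth factor signalling, stood at 50 to 164 over the 9 libraries and was not called.

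Of 25 other proteoglycan core proteins, 2 were raised and 2 lowered in hTNFtg versus WT, against 3.35% and 3.04% of all genes. Vcan, which encodes the large hyaluronan-binding proteoglycan versican, stood at 209, 168 and 157 in WT and at 498, 543 and 763 in hTNFtg, without overlap (1.74, SE 0.29, limma adjusted p = 0.0274). It stood at 449, 515 and 629 with infliximab. Gpc6, a cell surface heparan sulfate proteoglycan, was lowered (-1.47, SE 0.35).

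Enzymes build the sulfated chains that SLRPs carry. Of 23 enzymes of the linker and of chondroitin and dermatan sulfate, 1 was raised and 2 were lowered, against 3.35% and 3.04% of all genes. Chst15, which adds a further sulfate to chondroitin sulfate, stood at 469, 285 and 281 in WT, at 44, 90 and 19 in hTNFtg and at 95, 103 and 40 with infliximab (-2.95 in hTNFtg versus WT, SE 0.49, limma adjusted p = 0.0253). Chst11, a chondroitin 4-O-sulfotransferase, was raised (2.16, SE 0.51), and Pxylp1, a phosphatase of the linker, was lowered (-1.22, SE 0.51), with overlap between the groups of Pxylp1. Of 10 keratan sulfate enzymes, Chst2, a sulfotransferase, was lowered (-2.07, SE 0.44) and 0 were raised.

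Of 18 collagens and elastic fibre genes, 1 was raised and 3 were lowered, against the same 3.35% and 3.04%. Eln, which encodes elastin, stood at 93, 53 and 196 in WT and 6, 11 and 15 in hTNFtg (-3.18, SE 0.56, limma adjusted p = 0.0340). Col14a1, a collagen on the surface of fibrils, was lowered (-1.75, SE 0.42), and Col5a3 was raised (2.23, SE 0.37, limma adjusted p = 0.0237). With infliximab versus hTNFtg, Col5a3 was lowered (-1.19, SE 0.40), with overlap.

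Of 16 proteases tested that can cut SLRPs, 5 were raised in hTNFtg, 0 were lowered and the other 11 did not pass the cut-offs, which 3.35% and 3.04% of all genes passed upwards and downwards. Mmp3, which encodes stromelysin-1, stood at 90, 140 and 141 in WT, at 3170, 4055 and 4079 in hTNFtg and at 865, 642 and 1004 with infliximab. The 3 groups did not overlap, and the log2 fold change was 4.94 (SE 0.31, limma adjusted p = 3.82e-05) in hTNFtg versus WT and -2.18 (SE 0.33, limma adjusted p = 0.165) in infliximab versus hTNFtg. Mmp12, Adamts1 and Adamts5 were raised at 3.83 (SE 0.85), 1.72 (SE 0.33) and 1.60 (SE 0.35) without overlap. Mmp9 was raised at 4.35 (SE 1.48, limma adjusted p = 0.373), but its groups overlapped, at 5, 554 and 15 in WT and 143, 696 and 4533 in hTNFtg. Mmp12 was lowered with infliximab (-1.31, SE 0.58). Of 11 macrophage markers, 9 were raised in hTNFtg versus WT, and the part of macrophages in the protease calls was not tested.

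Of 25 receptors and growth factors tested that SLRPs bind, 8 were raised and 2 lowered in hTNFtg SFs, against 3.35% and 3.04% of all genes. The raised genes included those of the complement proteins C1qa, C1qb and C1qc (3.28, 3.78 and 3.77), Cd14 (2.46) and Tlr2 (1.99), and Bmp4, a bone morphogenetic protein, was lowered (-1.86, SE 0.49). C1qa and C1qb are also in the list of macrophage markers, of which 9 of 11 were raised in hTNFtg, and the part of macrophages in this list's calls was not tested. With infliximab, Tlr2 and C1qb were lowered versus hTNFtg (-1.27 and -1.13), with overlap between the groups of C1qb.

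**Figure D5:**
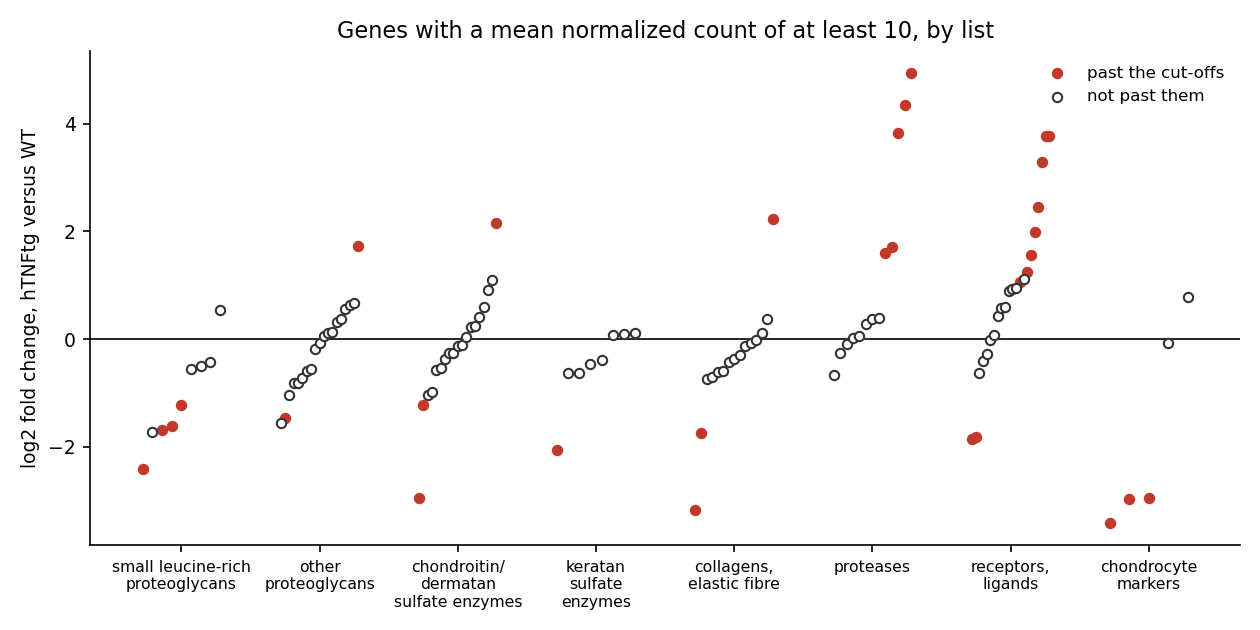
Log2 fold change in hTNFtg versus WT of genes that averaged 10 normalized counts or more, by list, with filled points for genes past the study's cut-offs. Filled points lie below 0 among the SLRPs (Epyc is too low to be drawn) and the chondrocyte markers, and those among the proteases lie above 0, beside open points on both sides.

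With infliximab versus hTNFtg, the lists of matrix genes and their partners gave 0 raised and 0 lowered among the 9 further SLRP genes, 1 raised gene (Gpc2, 1.23) and 0 lowered among the other proteoglycans, 0 and 0 among the 23 chondroitin and dermatan sulfate enzymes and among the keratan sulfate enzymes, 0 and 1 among the collagens, 0 and 2 among the proteases and 0 and 2 among the receptors, against 1.49% and 0.936% of all genes. In infliximab versus WT the numbers raised and lowered were 0 and 2 for the 9 further SLRP genes (Ecm2 and Chad, the latter at 3 or less in every library), 4 and 3 for other proteoglycans, 1 and 1 for chondroitin and dermatan sulfate enzymes, 0 and 1 for keratan sulfate enzymes, 1 and 3 for collagens, 5 and 0 for proteases and 7 and 2 for receptors, against 3.86% and 2.95% of all genes. Vcan (1.57, SE 0.20), Mmp3 (2.75, SE 0.24), Chst15 (-2.18, SE 0.36), Eln (-2.37, SE 0.66) and Bmp4 (-1.97, SE 0.47) were past the cut-offs there in the same direction as in hTNFtg versus WT, a comparison with the same WT libraries.

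The summed markers of chondrocytes, macrophages and mural cells did not overlap between WT and hTNFtg, while those of osteoblasts, tenocytes and skeletal muscle did. Some of these sums rest largely on few genes, named below, and do not stand for each marker of a list. The calls in hTNFtg versus WT below stand against 3.35% of all genes raised and 3.04% lowered. Of 12 chondrocyte markers in the tables, 6 were lowered and 0 raised in hTNFtg versus WT. Their summed level was 6277 to 9432 in WT, 628 to 1262 in hTNFtg and 941 to 2556 with infliximab. Most of this sum was Comp, a cartilage matrix protein (5353, 4373 and 7288 in WT, 299, 848 and 550 in hTNFtg), and Sox9, a chondrocyte transcription factor (1160, 1761 and 1939 in WT, 174, 272 and 179 in hTNFtg). Acan, which defines cartilage, stood at 16, 16 and 5 in WT and 0, 1 and 0 in hTNFtg, and Col9a1 and Col9a2, at 1 to 21 in WT, were at 0 in all hTNFtg libraries. Matn1 was at 0 in all WT and all hTNFtg libraries. Lect1, which encodes chondromodulin, was also called lowered, at 22, 12 and 20 in WT and 12, 0 and 0 in hTNFtg. Acan, Col9a1, Col9a2 and Lect1 stood at 22 or less in WT, so hTNFtg replicate 1, where 3 reads stand at 18.7, says little of them. The median log2 fold change over the 11 markers tested was -2.95, or -0.479 with values under 3 reads set to their bound. The other 5 of the 11 tested were not called, among them Col2a1 at 60, 51 and 94 in WT and 75, 88 and 37 in hTNFtg and Col9a3 at 37, 21 and 13 in WT and 62, 44 and 20 in hTNFtg. With infliximab versus hTNFtg, 3 of the 12 were called raised and 0 lowered, against 1.49% and 0.936% of all genes. Those raised were Comp (1.14, SE 0.46), whose groups overlapped, Sox9 (527, 572 and 281 with infliximab) and Col9a2. Col9a2 stood at 7, 5 and 0 with infliximab, below the 18.7 that the 0 of hTNFtg replicate 1 allows, so no fold is given for it. Of 8 osteoblast markers, Alpl, Sp7 and Ibsp were lowered and Spp1 was raised. Their summed level overlapped, at 2008 to 2517 in WT and 2312 to 4310 in hTNFtg. Spp1 was the largest part of each of these sums, at 1013, 1320 and 1556 in WT and 4217, 2155 and 2738 in hTNFtg. The sum therefore hides the fall of others, such as Alpl, at 983, 441 and 710 in WT and 0, 89 and 17 in hTNFtg. Alpl was called raised with infliximab versus hTNFtg, at 129, 206 and 48, with overlap and with the 0 in the shallow replicate 1. Of 5 tenocyte markers, 2 were lowered and 1 raised, and their summed level was 2516 to 2807 in WT and 1187 to 2690 in hTNFtg, and Mkx was raised with infliximab (1.62, SE 0.65), with overlap. Macrophage markers summed to 193 to 763 in WT, 3322 to 7510 in hTNFtg and 2200 to 4555 with infliximab, with 9 of 11 raised in hTNFtg and none of the 11 at 0 in all libraries of a group. Markers of mural cells and smooth muscle summed to 1716 to 3712 in WT, 4043 to 5269 in hTNFtg and 3362 to 4763 with infliximab. Most of this sum was Acta2, at 1427, 2510 and 3203 in WT and 4684, 3653 and 4463 in hTNFtg, which was not called. Of the 6 markers, 0 were raised in hTNFtg and 1 was lowered (Rgs5, at 26, 31 and 25 in WT, 0, 3 and 4 in hTNFtg and 13, 21 and 9 with infliximab). Myh11 was at 0 in all WT and all hTNFtg libraries. Markers of skeletal muscle summed to 14 to 79 over the 9 libraries. Among the 10 fibroblast markers, Pdpn was raised (2.01, SE 0.42). The part of these cells or markers in the SLRP results was not tested.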

How the data were processed

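3′ mRNA libraries (QuantSeq kit, Ion Proton) of 9 SF samples were analysed. The authors mapped reads to mm10 with TopHat2 and Bowtie2, counted them per gene with GenomicRanges and ran DESeq through metaseqR. The values used are a score, counts that the authors normalized and rounded to whole numbers. For hTNFtg replicate 1 the deposited signal is reads times a factor of about 6.23, rounded to whole numbers like the others. The deposited log2 values equal log2 of the normalized count plus 1. The deposited tables also hold fold changes and p-values of the authors' comparisons, which were not used, nor were 12 further per-sample columns. Both tables hold the hTNFtg libraries with the same values.

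Groups of 3 libraries were compared with limma 3.58.1 (eBayes with trend, R 4.3.3) on log2(normalized count + 1), for genes above 0 in at least 1 of 6 libraries, after a test on simulated data. Adding 1 shrinks changes of low genes, and a 0 in a shallow library can enlarge them. The cut-offs were those of the study, P under 0.05 and an absolute log2 fold change of at least 1, with Benjamini-Hochberg adjustment over all genes. P-values measure the spread between these samples only. edgeR 4.0.16 was run on approximate reads, the value divided by what 1 read is worth in that library. The bound of 3 reads covers counting error only. Intervals are at 95%. From each list, the genes named were at most the 6 with the largest change among those called with a mean of at least 10. Nepn, Ecm2 (in groups where not called), Tsku, Acan, Matn1, Chad, Ppfia4 and the collagens of cartilage were named after their values were seen. The genes and lists were chosen with earlier results of these data known. Mouse age, CD45 depletion and treatment are from the study's methods. Alternatives were other pseudocounts, a low-count filter, rescaling, weights, robust and blocked fits, all 9 libraries in 1 fit, edgeR and leaving out each library.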

Additional observations from a re-analysis of the deposited data

How the results depend on the processing

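In hTNFtg versus WT the number of SLRP genes lowered was 4 and ranged from 3 to 4 when single libraries were left out, and 0 were raised under all 16 alternatives. In infliximab versus WT it was 3 and ranged from 2 to 5 when single libraries were left out, where 724 to 1155 of all genes were lowered. The number with an adjusted p under 0.05 in hTNFtg versus WT was 3 with array quality weights, 3 with robust eBayes, 1 with all 9 libraries in 1 fit and 3 with edgeR, and it was 0 when any single library was left out. In infliximab versus WT that number was 1 with the filter on a mean of at least 10, 2 with array quality weights, 4 with robust eBayes and 4 with edgeR. The causes were not tested. The share of all genes with an adjusted p under 0.05 is not given for these settings, so these numbers are no result about the family. By the cut-offs in hTNFtg versus WT, 2218 genes were raised and 1322 lowered with array quality weights, against 956 and 867 in the main fit. Robust eBayes gave 1010 and 879, all 9 libraries in 1 fit 1179 and 1087, and edgeR 1484 and 926.

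Reversed directions were all of uncalled genes. In infliximab versus hTNFtg, Omd was -0.039 with pseudocount 5, -0.55 with array quality weights and -0.63 with edgeR, and ranged from -1.06 to 1.17 when single libraries were left out. Prelp was 0.090 with array quality weights and ranged from -0.58 to 0.38, Dcn from -0.18 to 0.23, Bgn from -0.27 to 0.63 and Lum from -0.25 to 0.16 when single libraries were left out. In hTNFtg versus WT, Bgn ranged from -0.88 to 0.020. In infliximab versus WT, Bgn was 0.18 with quantile normalization, and Podn ranged from -0.25 to 0.41. Omd passed the cut-offs in infliximab versus WT with robust eBayes (-1.39) and edgeR (-1.70).

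Over all genes in infliximab versus hTNFtg, 120 to 1390 genes were lowered, against 267, and 193 to 754 raised, against 426. In hTNFtg versus WT, 525 to 1322 were lowered and 658 to 2218 raised, and in infliximab versus WT, 443 to 1155 and 595 to 1361.

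With the replicate block, the numbers of SLRP genes lowered were 4, 0 and 3 in hTNFtg versus WT, infliximab versus hTNFtg and infliximab versus WT, the same as without it, and over all genes in hTNFtg versus WT 855 were raised and 804 lowered. The deviations of same-numbered libraries correlated at 0.292, -0.14 and 0.353 in hTNFtg versus WT, at 0.0698, 0.197 and 0.265 in infliximab versus hTNFtg and at 0.102, -0.147 and 0.0125 in infliximab versus WT, so that a pairing by number was not shown. Omd and Epyc are too low for the depth of hTNFtg replicate 1.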

Other observations

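The ratio of Fmod to Prelp, class II genes that lie 116 kb apart on chromosome 1, was chosen after their values were seen and was not tested. It was 13.2, 11.4 and 10.1 in WT replicates 1 to 3, with hTNFtg values of 1.90, 5.61 and 3.56 and infliximab values of 4.08, 5.99 and 5.78. All WT libraries lay above all others, and the hTNFtg and infliximab ranges overlapped.

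The ratio of Bgn to Dcn, the class I genes for biglycan and decorin, varied most among the hTNFtg libraries. WT libraries stood at 22.1 to 29.5, hTNFtg libraries at 11.4, 28.3 and 69.0 and infliximab libraries at 26.6 to 41.5, so that the groups overlapped.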
